A study of Mus musculus with 1 sample.

Results

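The genes described here are 10 genes of cellular iron handling, namely the ferritin chains Fth1 and Ftl1, the uptake genes Tfrc, Slc11a2 and Slc11a1, the export genes Slc40a1 and Cp, the heme-degrading enzyme Hmox1, and the iron sensors Aco1 and Ireb2. They were chosen by symbol, and each matched 1 of the 23282 rows of the expression table. The table came from 1 RNA-seq library of mixed glia cultured from the ventral midbrain (VM) of ICR (CD-1) mouse pups, an outbred strain, at postnatal day 5. The library was labelled as the control of an experiment on an inhibitor of serum- and glucocorticoid-regulated kinase 1 (SGK1), and the study's control cultures received the solvent DMSO. Glia given the inhibitor were not analysed here. The sample label gives VM-derived glial cells, whereas the value column of the deposited table is headed with an abbreviation, mAst, that the labels do not explain. The labels do not say how many pups or cultures contributed to the RNA. Since a single library has no replicate, the values carry no error and differences between genes could not be tested.

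Iron enters most cells as transferrin bound to the transferrin receptor, is moved out of endosomes by the transporter DMT1, and is either used, stored inside a ferritin shell or exported through ferroportin. The iron regulatory proteins IRP1 and IRP2 bind a short RNA hairpin, the iron-responsive element (IRE), when iron is scarce. An IRE in the 5′ UTR then lowers translation, as in the ferritins, whereas IREs in the 3′ UTR protect the transferrin receptor mRNA from decay. In the brain, microglia are known as iron-storing cells, and astrocytes are known to make ceruloplasmin, the oxidase that helps iron to leave the cell. The substantia nigra of the VM is a region known for iron accumulation in Parkinson disease.

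The IRE is the sequence that links several of these genes, so it was searched first. The pattern was a bulged C, 5 bases of any kind, the loop CAGTGN and 5 bases that pair with the first 5, with G-T pairs allowed, on the sense strand of annotated GENCODE M21 transcripts (GRCm38). A total of 7 matches were found in 4 of the 10 genes. The 29-base windows are shown 5′ to 3′ as DNA letters, and the capitals mark the 6-base loop.
Fth1, 5′ UTR, chr19:9982732-9982760, plus strand: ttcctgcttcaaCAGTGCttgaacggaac
Ftl1, 5′ UTR, chr7:45459779-45459807, minus strand: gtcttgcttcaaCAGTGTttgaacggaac
Slc40a1, 5′ UTR, chr1:45925465-45925493, minus strand: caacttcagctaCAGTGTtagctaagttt
Tfrc, 3′ UTR, chr16:32631219-32631247, plus strand: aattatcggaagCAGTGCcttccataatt
Tfrc, 3′ UTR, chr16:32631598-32631626, plus strand: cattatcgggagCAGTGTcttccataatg
Tfrc, 3′ UTR, chr16:32631663-32631691, plus strand: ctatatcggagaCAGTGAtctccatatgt
Tfrc, 3′ UTR, chr16:32631710-32631738, plus strand: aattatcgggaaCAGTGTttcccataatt

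The Fth1 and Ftl1 windows had the same base at 26 of 29 positions. The Slc40a1 window shared 13 of 29 positions with each of them. The 4 Tfrc windows shared 18 to 25 positions with one another and lay within 520 bases of the 3′ UTR. Of the 7 stems, 1 used a G-T pair, that of the Tfrc match at chr16:32631598-32631626. From the window to the start codon there were 109 bases in the Fth1 mRNA, 147 in Ftl1 and 201 in Slc40a1.

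The same pattern was present in a 5′ UTR of 31 of 20853 genes (0.149%) and in a 3′ UTR of 144 of 21144 genes (0.681%). Tfrc had the most matches in a 3′ UTR, with 4. The other 6 genes, Slc11a1, Slc11a2, Hmox1, Ireb2, Aco1 and Cp, had no match in either UTR. Slc11a2 is known to have an mRNA form with an IRE of less regular shape, and the strict pattern used here does not describe such a hairpin. A match is a match of letters and says nothing of binding in these cells.

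**Figure D1:**
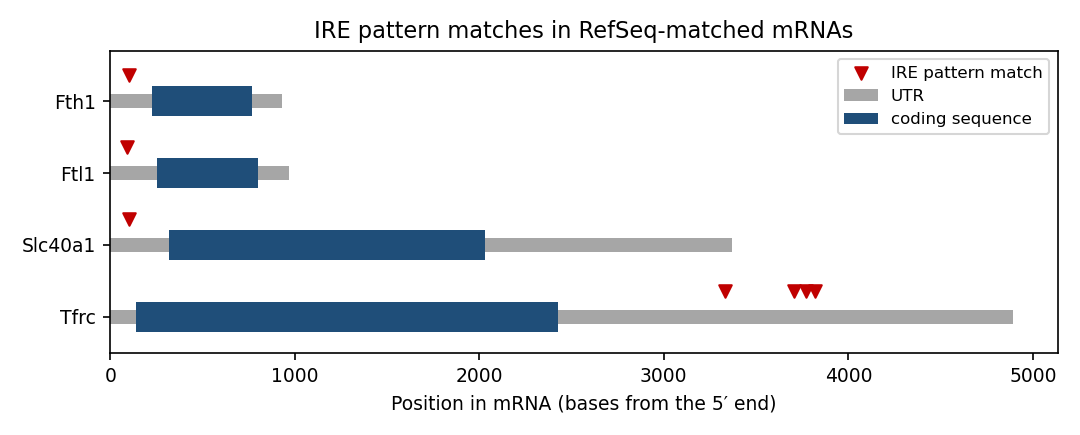
Position of the IRE pattern (red triangles) in 1 RefSeq-matched mRNA each of Fth1, Ftl1, Slc40a1 and Tfrc, in bases from the 5′ end. Grey bars are UTRs and blue bars coding sequence. Fth1, Ftl1 and Slc40a1 each have 1 match upstream of the coding sequence, and Tfrc has 4 downstream of it.

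All 10 genes were detected, that is, had a normalised read count of 10 or more, as were 67.2% of all rows. At a minimum of 1 the count was also 10 of 10 (78.2% of all rows), and at a minimum of 100 it was 9 of 10 (51.6% of all rows), Slc40a1 being the one below it. Together the 10 values summed to 412697, which was 1.5% of the sum of all values (27569507). Fth1 and Ftl1 made up 94.7% of that, and the other 8 genes together held 0.0787% of the sum of all values. Levels of different genes were compared per kb of annotated exon (the union of all annotated exons, in kb), and each was placed among the detected genes, whose median was 102 per kb. On this scale 3 of the 10 genes, Fth1, Ftl1 and Hmox1, were among the highest 10.0% of rows, a share fixed by definition. The median of the 10 genes was above 77.0% of detected genes, against 50% for detected genes in general.

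The iron storage genes were the most abundant by a wide margin. Fth1 (ENSMUSG00000024661.7, chromosome 19, 9980598 to 9985098, plus strand) encodes the heavy chain, which carries the site that oxidises iron on entry. Its normalised read count was 249988, the sixth of all rows, and its level was 72063 per kb, or 703 times the median detected gene. Ftl1 (ENSMUSG00000050708.16, chromosome 7, 45457944 to 45459884, minus strand) encodes the light chain, which promotes formation of the iron core. It had a normalised read count of 141007, the ninth of all rows, and its level was 105229 per kb, or 1027 times the median. Per kb of all annotated exons the ferritin chains stood at ranks 8 (Ftl1) and 12 (Fth1) of the 22911 rows with a known length. Per kb of the RefSeq-matched mRNA they stood at ranks 6 (Ftl1) and 3 (Fth1) of 20439 rows.

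Which ferritin chain was higher depended on the length by which the values were divided. Per kb of all annotated exons the Fth1 to Ftl1 ratio was 0.685. The annotation of Fth1 includes 4 retained-intron transcripts among 9, and its exon union was 3469 bases, whereas its RefSeq-matched mRNA has 929 bases. For Ftl1 these lengths were 1340 and 968 bases. Per kb of the RefSeq-matched mRNA the ratio was 1.85, with Fth1 at 269094 and Ftl1 at 145668 per kb. Per kb of all RefSeq-matched exons it was 1.14, and for the values as deposited it was 1.77. An order of the heavy and light chain therefore cannot be given from this library without choosing a transcript.

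Near-identical copies bear on the same ratio. Ftl1 shared stretches of 100 or more bases at 95% identity or more with 11 annotated genes elsewhere in the genome. Among them, Ftl1-ps1 aligned over 910 bases at 99.6% identity, and Gm15590, a processed pseudogene, over 552 bases at 99.1%. Others were miRNA genes, which aligned over only 109 bases, and the antisense gene Gm47428, which aligned over 345 bases in reverse orientation. Fth1 had 1 such copy, the processed pseudogene Gm6977, over 274 bases at 95.6%. None of these copies had a row in the table. How reads that fit both a gene and its copy were treated is not stated, and their part in the Ftl1 and Fth1 values was not tested. The exons of Ftl1 also overlap Gm10252 on the opposite strand over 355 bases and the miRNA gene Gm22133 on the same strand over 109 bases, and neither has a row. The mitochondrial ferritin gene Ftmt was listed at 0.

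Among the uptake genes, levels were moderate. Tfrc (ENSMUSG00000022797.16, chromosome 16, 32608920 to 32632794, plus strand) encodes the transferrin receptor. Its normalised read count was 1314, which is 212 per kb and above 66.7% of detected genes. Slc11a2 (ENSMUSG00000023030.16, chromosome 15, 100387898 to 100425072, minus strand) encodes DMT1, which carries ferrous iron out of the endosome. It had a normalised read count of 1291, which is 203 per kb and above 65.7%. Its exons overlap 402 bases of Gm5475 on the opposite strand, a gene at 8. Tfrc and Slc11a2 were thus close to each other, with a ratio of 1.05 per kb that ranged from 0.919 to 1.19 across the length definitions and the undivided values.

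Slc11a1 (ENSMUSG00000026177.11, chromosome 1, 74375195 to 74386062, plus strand) encodes NRAMP1, the related transporter of the phagosome membrane that is known from macrophages and microglia. It was the highest of the 3 uptake genes, with a normalised read count of 1945, or 525 per kb, above 83.2% of detected genes. Per kb it was 2.58 times Slc11a2, and as deposited 1.51 times. The second transferrin receptor gene Tfr2, known from liver and erythroid precursors, had a value of 13, and Tfrc was 70.9 times higher per kb.

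The export genes lay far apart in the order of the 10 genes per kb, Cp at place 4 and Slc40a1 at place 10. Slc40a1 (ENSMUSG00000025993.10, chromosome 1, 45908068 to 45926523, minus strand) encodes ferroportin, the known iron exporter of mammalian cells. It was the lowest of the 10 genes, with a normalised read count of 67, or 7.44 per kb, which is 0.0727 of the median and above 8.29% of detected genes. Its exons overlapped no other annotated gene and it had no near-identical copy. Per kb of its RefSeq-matched mRNA it was at 19.9, above 14.7% of detected genes, so it stayed lowest. The ferritin chains, which carry a 5′ UTR match as Slc40a1 does, were 9680 (Fth1) and 14135 (Ftl1) times higher per kb of all annotated exons. Per kb of the RefSeq-matched mRNA these ratios were 13535 and 7327, and for the values as deposited 3731 and 2105. All of these values are those of whole genes, not only of the transcripts with a match.

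Cp (ENSMUSG00000003617.16, chromosome 3, 19957054 to 20009145, plus strand) encodes ceruloplasmin, the copper-containing ferroxidase that works beside ferroportin. Its normalised read count was 5369, or 561 per kb, above 84.3% of detected genes, and 75.4 times Slc40a1 per kb (46.6 times per kb of RefSeq-matched exons). Its exons overlap 108 bases of Hps3 on the opposite strand, a gene at 726. The other ferroxidase genes were far lower, with Heph (hephaestin) at 98 and Hephl1 listed at 0. Cp exceeded Heph 43.9-fold per kb. Hamp, which encodes the ferroportin-degrading hormone hepcidin, had a value of 2, and Hamp2 was listed at 0.

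Hmox1 (ENSMUSG00000005413.8, chromosome 8, 75093621 to 75100589, plus strand) encodes heme oxygenase 1, the inducible enzyme that opens the heme ring and frees its iron. It ranked after the ferritin chains, with a normalised read count of 9658, or 5516 per kb, which is 53.8 times the median and above 98.3% of detected genes. The constitutive paralog Hmox2 had a value of 3045, and Hmox1 was 4.02 times higher per kb. Hmox1 was 26.0 times Tfrc per kb and 7.35 times as deposited. Its ratio to Slc40a1 was 741 per kb of all annotated exons, 310 per kb of the RefSeq-matched mRNA and 144 as deposited.

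Of the iron sensors, Ireb2 lay close to the median detected gene per kb, and Aco1 lay above it. Aco1 (ENSMUSG00000028405.9, chromosome 4, 40143081 to 40198338, plus strand) encodes IRP1, which is a cytosolic aconitase when it holds an iron-sulfur cluster. It had a normalised read count of 1150, or 256 per kb, above 70.7% of detected genes. Ireb2 (ENSMUSG00000032293.8, chromosome 9, 54863789 to 54912530, plus strand) encodes IRP2, which is degraded when iron is plentiful. Its normalised read count was 908, or 95.8 per kb, above 48.5%. Ireb2 was lower than Aco1, with a ratio of 0.374 per kb, and it was also lower for the values as deposited (0.79). Fbxl5, which encodes the iron-sensing ubiquitin ligase subunit that removes IRP2, was at 547, or 56.2 per kb. Per kb of all annotated exons it was the lowest detected gene of its list, but not per kb of the RefSeq-matched mRNA.

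**Figure D2:**
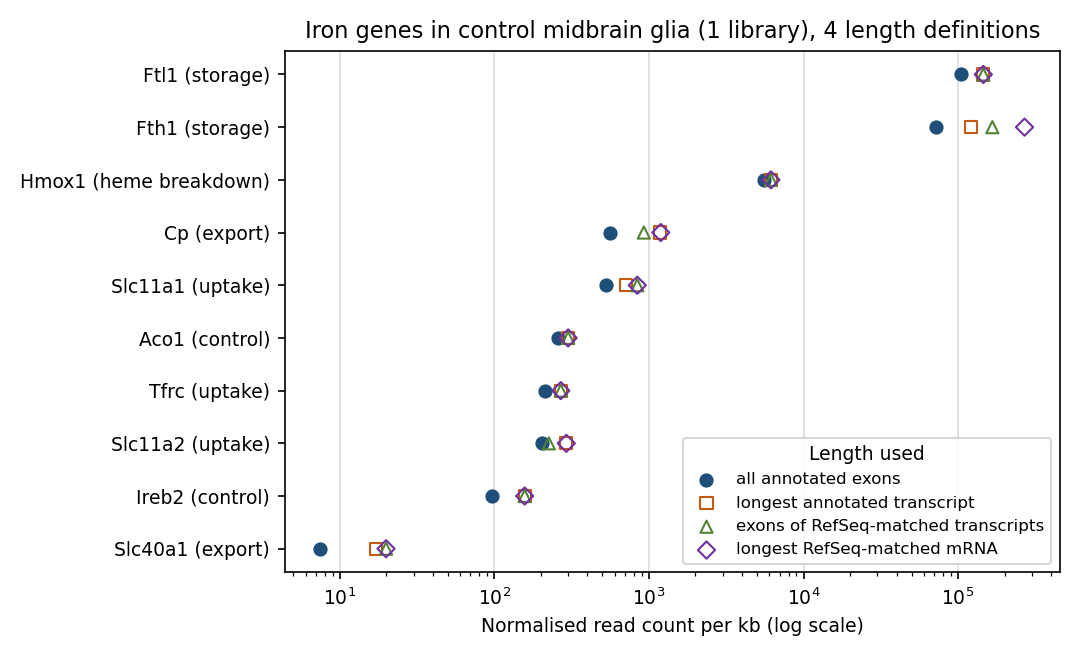
Normalised read count per kb of each of the 10 iron genes in the 1 control library, on a log scale, with the value divided by 4 definitions of gene length (marker shapes). Of the 10 genes, 6 keep 1 place in the order under all 4 definitions, while Fth1 and Ftl1 exchange places and so do Tfrc and Slc11a2.

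From highest to lowest per kb of all annotated exons, the order was Ftl1, Fth1, Hmox1, Cp, Slc11a1, Aco1, Tfrc, Slc11a2, Ireb2 and Slc40a1. The places of Hmox1, Cp, Slc11a1, Aco1, Ireb2 and Slc40a1 were equal under the 4 length definitions. Some neighbours in this order were close, but how close depended on the length. Slc11a1 was at 0.935 of Cp per kb of all annotated exons, at 0.607 with the longest transcript and at 0.362 as deposited. Aco1 was 1.2 times Tfrc per kb and 0.875 times as deposited. With no replicate it cannot be said whether such neighbours differ.

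**Figure D3:**
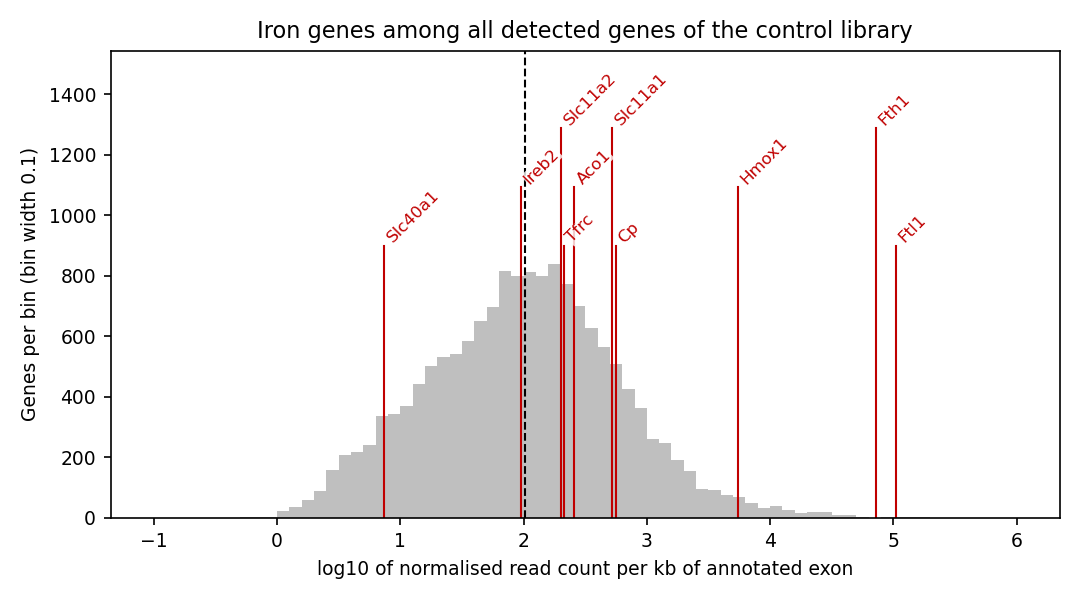
Histogram of the normalised read count per kb of annotated exon (log10) of the 15487 detected genes with a known length, with the 10 iron genes as red lines and the median of 102 per kb as a dashed line. Ftl1 and Fth1 lie at the upper end, Hmox1 lies below them at 5516, and Slc40a1 lies in the lower tail at 7.44.

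Markers of several cell types were present in the library, in which 67.2% of all rows were detected. All 8 microglia markers examined were detected (984 to 53801, median 8180.5), as were 7 of 8 astrocyte markers (4 to 17222, median 2966.5), with Gjb6 at 4. The 6 mesenchymal markers ran from 455 to 26499, and of the oligodendrocyte lineage Mbp was at 10966 while Sox10 was at 48. Most neuronal, endothelial and choroid plexus epithelial markers were low, with summed values of 239, 198 and 272. The choroid plexus marker Folr1, however, was at 229 (99.7 per kb, above 49.4% of detected genes). The neuronal marker Tubb3 was at 124 (66.4 per kb, above 40.2%). Of 8 erythroid markers 2 were detected, Epor at 63 and Alas2 at 10, while 4 were listed at 0, Hbb-bs, Hbb-bt and Slc4a1 among them, and Hba-a1 and Hba-a2 were each at 6. The part of these cell types in the iron gene values was not tested. A bulk value does not show which cell type an mRNA came from, and fewer cells of a type cannot be told apart from less RNA per cell.

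The wider iron pathway was described with lists of other genes. Of 17 genes of iron entry, 15 were detected (against 67.2% of all rows) and 7 were above the median detected gene per kb. By definition, 50% of detected genes lie above that median. Trf, which encodes transferrin itself, was at 11440 (3446 per kb, 16.2 times Tfrc per kb and 8.71 times as deposited), and Lrp1, a receptor for hemopexin-bound heme among many other ligands, was at 53849 (3039 per kb). Hfe, whose product binds the transferrin receptor, was at 843. The ferrireductase gene Steap2 was the lowest detected per kb (value 29, 2.39 per kb), and Timd2, the mouse receptor of heavy-chain ferritin, and Ltf, which encodes lactoferrin, were listed at 0. Other entry genes, named after their values were seen, were the endosomal ferrireductase Steap3 at 621, the non-transferrin iron transporter Slc39a14 at 625, the light-chain ferritin receptor Scara5 at 109 and the hemoglobin scavenger receptor Cd163 at 21.

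The 4 genes listed for ferritin handling, Ftmt at 0 among them, had a median of 990 per kb. The median of the iron entry list was 56.1 per kb, but its genes Trf and Lrp1 were higher than all 4. The iron chaperone genes Pcbp2 (12726) and Pcbp1 (3281) were above 96.3% and 94.9% of detected genes per kb, and Ncoa4, the receptor that delivers ferritin to lysosomes, was at 1749 and above 63.8%. The 6 further genes listed under iron and heme export included the ferroxidase genes Heph and Hephl1 and the hepcidin genes Hamp and Hamp2. Of the 6 genes, 3 were detected (Prnp, Flvcr1 and Heph), against 67.2% of all rows. Prnp, which encodes the prion protein, was at 8964, and Flvcr1, a heme exporter listed under its older symbol Mfsd7b, at 738.

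Heme synthesis genes were all detected (9 of 9, against 67.2% of all rows), 4 of them above the median detected gene per kb. Urod was at 2294, Alas1, the first and rate-limiting enzyme outside the erythroid lineage, at 3440 and Alad at 636, while the erythroid Alas2 was at 10. Of 8 genes of heme breakdown and transport, 8 were detected, against the same 67.2% of all rows. Besides Hmox2, the endolysosomal heme transporter gene Slc48a1 was at 2705 and the biliverdin reductase gene Blvra at 2191, and Hpx (hemopexin) was lowest at 10 (6.67 per kb).

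Among 11 genes that control iron genes, 9 were detected (against 67.2% of all rows) and 7 were above the median detected gene. Nfe2l2, which encodes the NRF2 activator of Hmox1 and ferritin genes, was at 3790 (998 per kb). Hif1a was at 4241 and Epas1 at 3781. Bach1, the heme-sensing repressor of Hmox1, which was named after its value was seen, was at 847. Hjv, listed under the older symbol Hfe2, and Tmprss6, both known from hepatic control of hepcidin, were listed at 0.

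**Figure D4:**
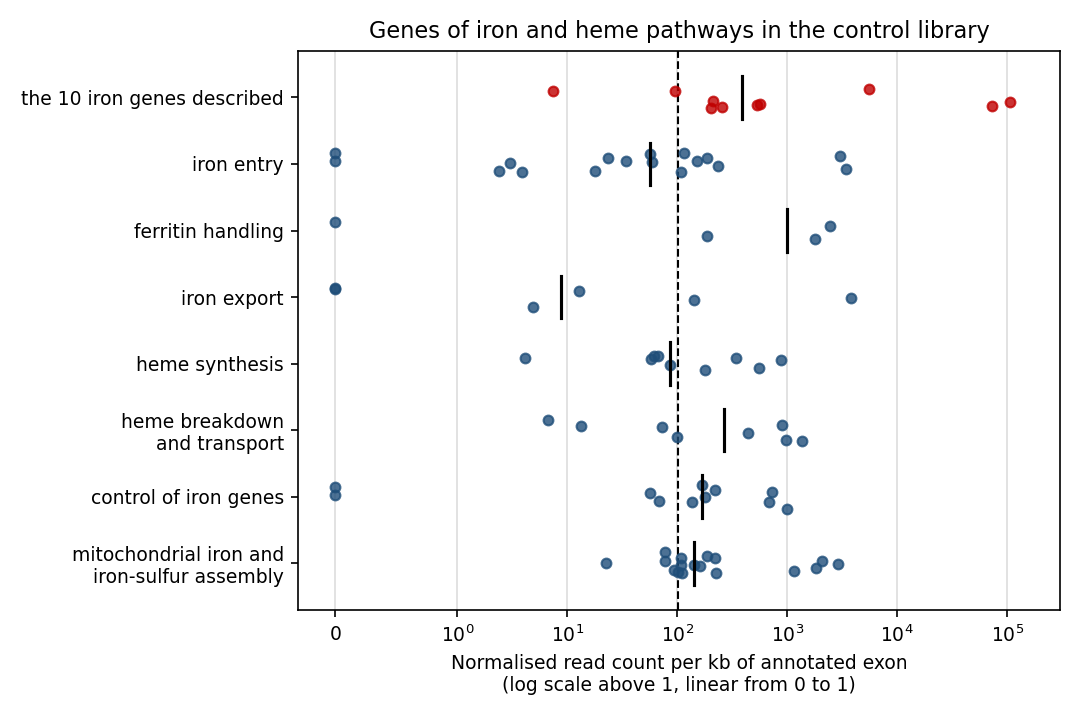
Normalised read count per kb of annotated exon (log scale above 1, linear below) for the 10 iron genes (red) and for 7 lists of other iron and heme genes (blue), with 1 point per gene, black bars for list medians and a dashed line for the median detected gene (102 per kb). The iron export list, which includes the hepcidin genes Hamp and Hamp2, has the lowest median, 8.84. Ferritin handling has the highest of the 7 lists, 990.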

How the data were processed

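RNA of control glia was measured in 1 RNA-seq library (Trizol, SMARTer kit). According to the study's methods, the authors trimmed bases of low quality, mapped reads to GRCm38/mm10 with STAR and counted reads on RefSeq exons with HTSeq-count, whereas the submitters' processing notes name TopHat and edgeR. The deposited values are normalised read counts given as whole numbers, and they were treated as a score. The normalisation, the strand setting, the tool versions and the treatment of multi-mapped reads are not given in the sources used here, and the read depth is unknown, so no interval is given.

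A row was called detected at 10 or more. Gene positions and lengths came from GENCODE M21 (GRCm38), to which 98.4% of rows matched by symbol or RefSeq synonym. Values were divided by the exon union and, as alternatives, by the longest transcript, RefSeq-matched exons and the longest RefSeq-matched mRNA, the last 2 added after the data were seen. Percentiles count detected genes that were lower. Copies were sought with BLAST 2.17.0 (100 bases, 95% identity). IRE search and percentiles were tested on simulated data. With 1 library no test across samples was made. The genes and lists were chosen with earlier results of these data known. Named beside the 10 genes were their paralogs and copies and, in each list, the 3 highest per kb, the lowest and those at 0, apart from a few genes that are not reported here. Python 3.11.15, numpy 2.4.6, pandas 2.3.3 and matplotlib 3.10.9 were used.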

Additional observations from a re-analysis of the deposited data

How the results depend on the processing

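The ratio of Fth1 to Ftl1 (0.685 per kb of all annotated exons) was 0.832 with the longest transcript, and it turned to the other side of 1 with RefSeq-matched exons (1.14), the longest RefSeq-matched mRNA (1.85) and values as deposited (1.77), as follows from the lengths used. The ratio of Ireb2 to Aco1 (0.374) was 0.524 with the other 3 lengths, and that of Slc11a1 to Slc11a2 (2.58) was 2.44, 3.73 and 2.87 with the longest transcript, RefSeq-matched exons and RefSeq-matched mRNA. The median percentile of the 10 genes (77.0) was 75.7, 75.5 and 74.3 with the same lengths and 78.5 for values as deposited. Their share of the sum (1.5%) was 1.53% without Rn45s and 1.72% without the 10 highest rows outside the 10 genes. At a minimum of 100, 9 of the 10 genes were detected (all but Slc40a1). The highest 10.0% of rows held 4 of the 10 genes, Cp being the added one, with the other 3 lengths and for values as deposited, and 3 with detected or protein-coding rows only as the background. Adding ferritin copies to their parent genes gave no value, because no copy had a row. No paired analysis was possible because there was 1 sample. The lack of a replicate limits every value to this library.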

Other observations

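Genes of mitochondrial iron import and iron-sulfur cluster assembly were all detected (17 of 17, against 67.2% of all rows). Of these, 12 were above the median detected gene per kb. The mitochondrial chaperone gene Hspa9 was at 12442 and the scaffold gene Iscu at 4532, and Iba57, a late assembly factor, was lowest per kb (value 109, 22.3 per kb).

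Beyond the 10 iron genes, the IRE pattern in a 5′ UTR occurred in genes that spanned a wide range of values. Of the 31 genes, 29 had a row and 26 were detected (against 67.2% of all rows), with a median value of 558. Fth1 and Ftl1 had the highest and second-highest values of the 29, Ppia followed at 39930, and Slc40a1 was at place 21. For some of these genes, Ppia among them, the match lay only in transcripts not matched to RefSeq. The values are those of whole genes, not of the transcripts with a match. Alas2, known to carry a 5′ UTR IRE, was among the 31. In 3′ UTRs, 140 of the 144 genes had a row and 122 were detected (against 67.2% of all rows), and Tfrc was at place 32 of the 140.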
